A study of Danio rerio with 18 samples.

Results

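The aspartate tRNAs of the zebrafish (Danio rerio) nuclear genome were followed through early development, up to the close of gastrulation. All nuclear entries of the abundance table named as tRNA-Asp were taken, which gave 16 of 2578 nuclear entries. The 16 entries, tRNA-Asp-GUC-1 to tRNA-Asp-GUC-16, all carried the anticodon GUC and were all single transcripts, with 0 unresolved groups among them. Together they formed 1 of 47 nuclear anticodon families. Abundance was measured by mim-tRNAseq, in which the reverse transcriptase copies past modified bases, in 12 libraries of wild-type eggs and embryos of the TLAB strain with 2 libraries per stage. Eggs were taken unfertilized at 0 hours post-fertilization (hpf), and the blastula stages 256-cell, 1000-cell and sphere at 2.5, 3 and 4 hpf. Gastrula embryos were taken at shield (6 hpf) and at bud (10 hpf). No treatment was applied to any group, and each abundance library came from a pool of 50 eggs or whole embryos, so a change in a few cells and a smaller change in all cells cannot be told apart. Charging, the percentage of tRNA molecules bearing an amino acid, was measured in 3 additional wild-type libraries at sphere and 3 at bud.

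tRNA-Asp is aminoacylated by aspartyl-tRNA synthetase and decodes both aspartate codons, GAC and GAU, with the GUC anticodon. In vertebrates the first anticodon base of tRNA-Asp, tRNA-Asn, tRNA-His and tRNA-Tyr is replaced by queuosine, which is made from a micronutrient. Nuclear tRNA genes are transcribed by RNA polymerase III, and transcripts that share an anticodon but differ elsewhere in sequence are called isodecoders. A fertilized zebrafish egg starts with maternal tRNA and later adds tRNA from its own genome.

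Library totals ranged from 977425 to 10121680 counts of uniquely mapped reads, and the labels gave no sequencing batch. Between 34595 and 247042 of these counts per library were aspartate tRNA. Replicate libraries of a stage differed by more than sampling noise over the 16 transcripts. The chi-square per degree of freedom was 7.15 at egg, the lowest, and 63.2 at shield, the highest. Over all detected transcripts it ran from 36.5 at sphere to 156 at shield. This measure grows with the number of counts, so it does not rank the stages by how well replicates matched. The SD of the family share was 0.631 percentage points at egg and 0.455 at shield. The labels do not say whether replicates are separate clutches. The study's methods state that abundance replicates were collected on different days, and the paper calls them biological replicates. P-values measure the spread between these libraries. Reads may be assigned wrongly between isodecoders that differ by few bases, so values of single transcripts are less certain than those of the family.

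Aspartate tRNA was an abundant family at every stage. It made up 4.37% (Wilson 95% interval 4.33% to 4.42%) and 3.48% of nuclear tRNA counts in the 2 egg libraries, given here and below in the order of replicates 1 and 2. The share was 2.90% and 3.10% at 256-cell, 3.55% and 2.84% at 1000-cell, and 4.03% and 3.78% at sphere. It was 4.85% and 4.21% at shield and 4.63% and 4.48% at bud. The 4 gastrula libraries, shield and bud, all lay above the 6 blastula libraries from 256-cell to sphere, while egg replicate 1 lay in the gastrula range and egg replicate 2 in the blastula range. Among the 47 families the rank of aspartate ran from 3 in shield replicate 1 to 17 in 1000-cell replicate 2.

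**Figure D1:**
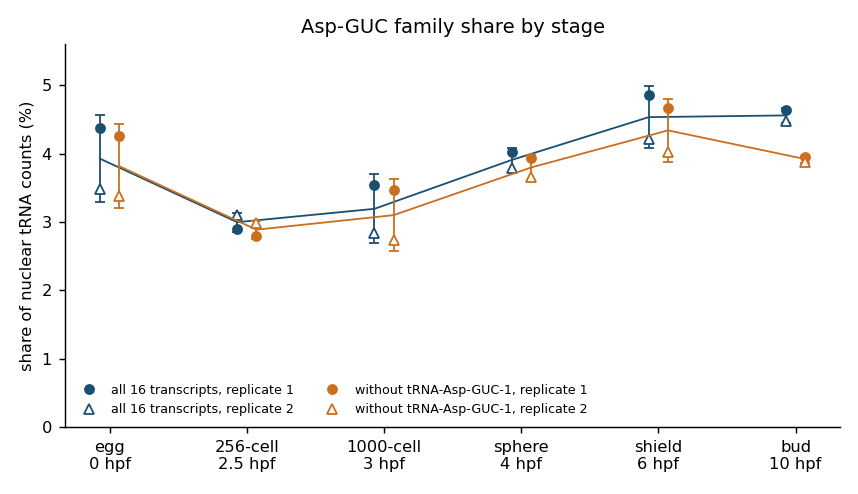
Share of nuclear tRNA counts (%) held by aspartate tRNA at 6 stages, with all 16 transcripts (blue) and without tRNA-Asp-GUC-1 (orange). Filled circles and open triangles are replicates 1 and 2, lines join stage means and bars are ± SD (n = 2). The share was lowest at 256-cell and 1000-cell, and its mean was 4.53% at shield and 4.56% at bud with all transcripts, but 4.34% and 3.92% without tRNA-Asp-GUC-1.

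The question of whether the family differed between blastula and gastrula was put to these shares with an exact permutation test over libraries. The mean was 3.37% ± 0.494 (SD, n = 6) in blastula libraries, whose lowest, median and highest values were 2.84%, 3.32% and 4.03%, and 4.54% ± 0.270 (SD, n = 4) in gastrula libraries. The gastrula libraries were higher by 1.18 percentage points (two-sided exact permutation p = 0.00952, adjusted p = 0.00952 over 2 tests, where 0.00476 is the smallest p the design allows). All 4 gastrula libraries were above all 6 blastula libraries. Without tRNA-Asp-GUC-1 the difference was 0.868 points (exact permutation p = 0.0190). The test treated libraries of different stages as interchangeable, although stages differed within the blastula group, with means of 3.00% at 256-cell and 3.91% at sphere. These p-values therefore do not measure the spread between replicates of a stage. Other families were not tested in this way. Shares of a fixed total depend on all other tRNAs.

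The fit across families, with DESeq2's Wald test and median-of-ratios size factors, made no call for aspartate in any of the 8 contrasts. A call was an adjusted p of at most 0.05. The log2 change from egg was -0.37 ± 0.15 (SE) at 256-cell (DESeq2 adjusted p = 0.304), -0.30 at 1000-cell (adjusted p = 0.419), -0.02 at sphere (adjusted p = 0.946), 0.21 at shield (adjusted p = 0.334) and 0.29 ± 0.15 at bud (adjusted p = 0.124). Shield against sphere gave 0.23 (adjusted p = 0.474), bud against shield 0.08 (adjusted p = 0.766) and bud against sphere 0.30 (adjusted p = 0.112). At an unadjusted p under 0.05 there were 2 contrasts, 256-cell against egg and bud against sphere, and edgeR's quasi-likelihood test called 0 of the 8. At that unadjusted level 4 of the 47 families passed for 256-cell against egg and 19 for bud against sphere. DESeq2 called 17 of 47 families, or 36.2%, for bud against egg, 17.0% for shield against egg, 29.8% for bud against sphere and 10.6% for bud against shield. In the other 4 contrasts DESeq2 called 2.13% (256-cell against egg), 0.0% (1000-cell against egg), 4.26% (sphere against egg) and 2.13% (shield against sphere). Bud against sphere passed when only those 4 libraries were fitted, at 0.30 (adjusted p = 0.00933), and bud against egg passed without egg replicate 1, at 0.47 (adjusted p = 0.0170). The 256-cell change passed without either sphere library (-0.38, adjusted p = 0.0396 without replicate 1 and 0.0426 without replicate 2).

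The family was carried by few isodecoders. tRNA-Asp-GUC-2 held between 79.9% and 92.0% of the aspartate counts of a library, with a mean of 87.7%. By the mean share of its leading entry, aspartate ranked 10 of the 47 families. tRNA-Asp-GUC-1 followed with a mean of 5.09% and tRNA-Asp-GUC-6 with 4.76%, while tRNA-Asp-GUC-4, tRNA-Asp-GUC-5 and tRNA-Asp-GUC-7 held 0.668%, 0.455% and 0.369%. The detection threshold was 0.005% of nuclear counts in at least 1 library, which 607 nuclear transcripts and 11 of the 16 aspartate transcripts reached. The 5 below this level were tRNA-Asp-GUC-8, tRNA-Asp-GUC-11, tRNA-Asp-GUC-13, tRNA-Asp-GUC-15 and tRNA-Asp-GUC-16. All 16 had at least 1 count in every library, with the lowest value, 1 count, for tRNA-Asp-GUC-15.

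The isodecoder with the most gene copies was not the most abundant, and ranked 6 of 16 by its mean share. The reference held 150 copies of aspartate tRNA genes, which ranked 26 of the 46 families with a copy number. tRNA-Asp-GUC-7 alone had 107 of them, or 71.3%, yet it gave between 0.240% and 0.441% of aspartate counts. tRNA-Asp-GUC-2 had 21 copies and tRNA-Asp-GUC-1 had 5. tRNA-Asp-GUC-6, the third most abundant, was 1 of the 10 transcripts with 1 copy. The mean share of aspartate counts per gene copy was 4.76% for tRNA-Asp-GUC-6, 4.18% for tRNA-Asp-GUC-2 and 0.00345% for tRNA-Asp-GUC-7. For tRNA-Asp-GUC-1 the share per copy was 0.560% in egg and 2.80% at bud. Which of the copies of a transcript were active is not visible in the counts, because identical copies give identical reads.

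**Figure D2:**
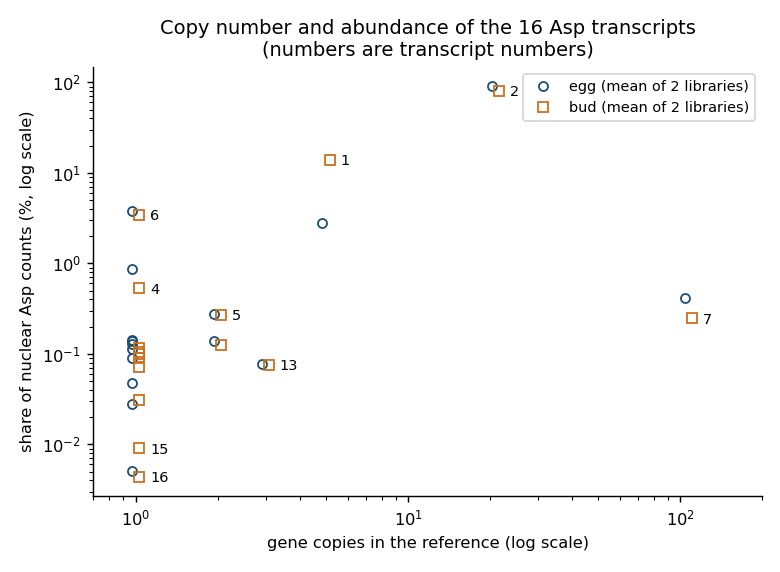
Number of gene copies in the reference (x axis, log scale) against the share of nuclear aspartate counts (%, y axis, log scale) for the 16 transcripts in egg (circles) and bud (squares), each a mean of 2 libraries. Points are shifted slightly sideways so that both stages can be seen. tRNA-Asp-GUC-7, with 107 copies, lay below tRNA-Asp-GUC-1, tRNA-Asp-GUC-2, tRNA-Asp-GUC-4, tRNA-Asp-GUC-5 and tRNA-Asp-GUC-6 at bud.

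Within the family, tRNA-Asp-GUC-1 held a larger part of the counts at bud than at any earlier stage. The share of tRNA-Asp-GUC-1 among aspartate counts was 2.71% and 2.88% in egg, 3.54% and 3.76% at 256-cell, 2.21% and 3.72% at 1000-cell and 2.47% and 3.22% at sphere. It was 3.98% and 4.61% at shield and 14.6% and 13.4% at bud. Both shield libraries were above all 8 earlier libraries, and both bud libraries were far above the shield libraries. For each 100 counts of tRNA-Asp-GUC-2 there were 2.97 and 3.18 counts of tRNA-Asp-GUC-1 in egg, 4.60 and 5.24 at shield and 18.2 and 16.4 at bud. This ratio does not depend on how libraries were scaled to each other.

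**Figure D3:**
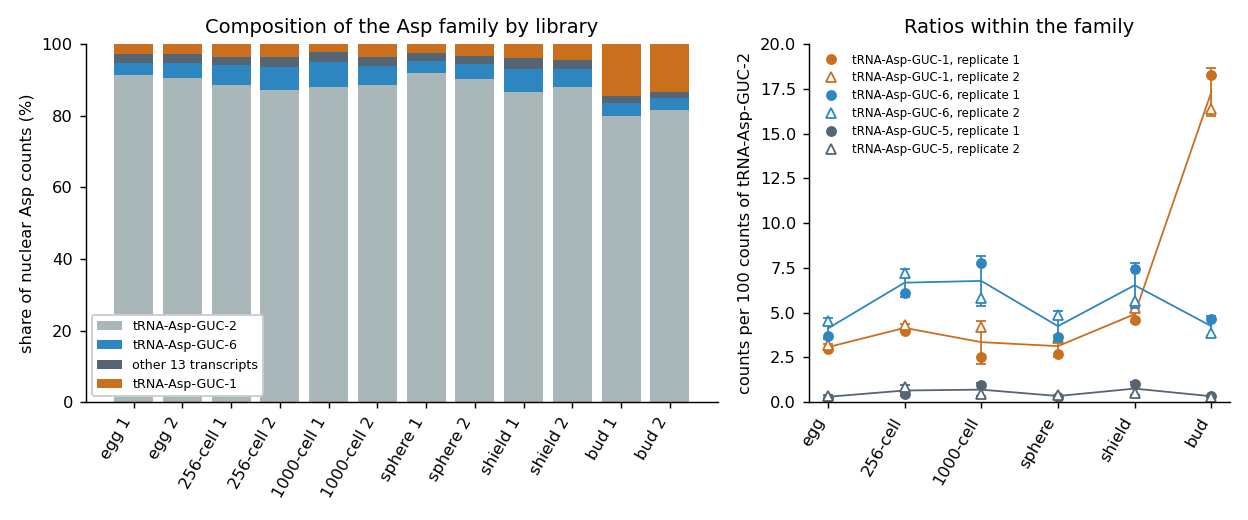
Left, share of nuclear aspartate counts (%) held by tRNA-Asp-GUC-2, tRNA-Asp-GUC-6, tRNA-Asp-GUC-1 and the other 13 transcripts in each of the 12 libraries. Right, counts of tRNA-Asp-GUC-1, tRNA-Asp-GUC-6 and tRNA-Asp-GUC-5 per 100 counts of tRNA-Asp-GUC-2 by stage (circles and triangles, replicates 1 and 2; bars, ± SD, n = 2). tRNA-Asp-GUC-1 went from 4.92 per 100 at shield to 17.3 at bud, while tRNA-Asp-GUC-6 was 6.53 at shield and 4.25 at bud.

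With DESeq2 and median-of-ratios size factors tRNA-Asp-GUC-1 was the only detected aspartate transcript called in any of the 8 contrasts. Its share of nuclear counts was 0.119% and 0.1003% in egg, 0.103% and 0.116% at 256-cell, 0.0784% and 0.106% at 1000-cell and 0.0997% and 0.122% at sphere. The share was 0.193% and 0.194% at shield and 0.676% and 0.600% at bud, so neither gastrula stage overlapped with any earlier library. These shares rest on 939 counts in egg replicate 1, the smallest number, and on 21172 and 25516 counts at bud.

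For bud against egg 1 of the 11 detected aspartate transcripts was called, beside 27.2% of all 607 detected transcripts. tRNA-Asp-GUC-1 was 7.61-fold higher at bud, or 2.93 ± 0.25 on the log2 scale (SE, n = 2 per stage, DESeq2 adjusted p = 6.93e-30), which ranked 19 among the 607 changes ordered from the largest rise. Against sphere, where 19.9% of detected transcripts were called, it was 7.55-fold higher (log2 change 2.92 ± 0.25, DESeq2 adjusted p = 5.36e-30) and ranked 9. Against shield, where 10.5% were called, it was 4.45-fold higher (log2 change 2.15 ± 0.25, DESeq2 adjusted p = 3.37e-16) and ranked 9. These 3 rises stayed past the threshold under each alternative fit and without any single library. Scaling by total nuclear counts instead of the median of ratios lowered the median log2 change of detected transcripts by 0.37 for bud against egg, and the change of tRNA-Asp-GUC-1 was then 2.54.

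At shield the rise was smaller and less secure. tRNA-Asp-GUC-1 was 1.71-fold higher than in egg (log2 change 0.78 ± 0.25, DESeq2 adjusted p = 0.0255), as the only call among the 11, where 15.5% of all detected transcripts were called. Among the 607 changes ordered from the largest rise it ranked 89 for shield against egg and 55 for shield against sphere. The call was lost when only the 4 libraries compared were fitted (adjusted p = 0.236) and in 8 of 12 fits that left out 1 library, which were those without either egg, sphere, shield or bud library (adjusted p from 0.0517 to 0.271). Across all 12 of these fits the log2 change stayed between 0.70 and 0.84. Against sphere the log2 change at shield was 0.76 ± 0.25 and missed the threshold (DESeq2 adjusted p = 0.0881), but it passed without either 1000-cell library (0.77 and 0.76, adjusted p = 0.0244 and 0.0346). With total nuclear counts as size factors it was 0.81 (adjusted p = 0.0254).

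Before shield no aspartate transcript was called. DESeq2 called 0 of 11 at 256-cell, 0 at 1000-cell and 0 at sphere against egg, where it called 0.988%, 0.494% and 0.824% of detected transcripts. It also called 0 for shield against sphere, where it called 1.65%. At an unadjusted p under 0.05 there were 2, 2, 0 and 4 aspartate transcripts in these 4 contrasts, and edgeR called 0 in each. At the same unadjusted level 75, 62, 61 and 101 of the 607 detected transcripts passed. Without egg replicate 2 DESeq2 called 1 at 256-cell and 1 at 1000-cell. The log2 change of tRNA-Asp-GUC-1 from egg was 0.02 at 256-cell (adjusted p = 0.991), -0.30 at 1000-cell (adjusted p = 0.835) and 0.01 at sphere (adjusted p = 0.989).

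The other 10 detected transcripts had log2 changes from -0.13 to 0.59 for bud against egg, with a median of 0.35, while the median of all 607 was close to 0 at -0.0019. Of these 10, 8 had positive and 2 had negative estimates, and none passed the threshold with DESeq2 and median-of-ratios size factors. These signs depend in part on the scaling, as total nuclear counts lowered the median of all detected transcripts by 0.37. A positive estimate did not always go with a larger mean share of nuclear counts. That share was 0.00561% in egg and 0.00474% at bud for tRNA-Asp-GUC-14, but 0.00537% and 0.00568% for tRNA-Asp-GUC-9. tRNA-Asp-GUC-2, the main isodecoder, held 3.99% and 3.15% of nuclear counts in egg, 2.57% and 2.70% at 256-cell, 4.21% and 3.70% at shield and 3.70% and 3.66% at bud. The bud libraries lay between the egg libraries. Its log2 change for bud against egg was 0.43 ± 0.19 (DESeq2 adjusted p = 0.0995), and it was 0.55 with TMM factors, both in DESeq2 (adjusted p = 0.0432) and in edgeR (adjusted p = 0.0256), but 0.04 with total nuclear counts as size factors. The call for this transcript thus depended on the scaling. The family and transcript fits had separate size factors. For the bud libraries these were 1.105 and 1.496 in the family fit and 0.925 and 1.227 in the transcript fit. The family change of 0.29 and the transcript changes for bud against egg are therefore not on the same scale.

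**Figure D4:**
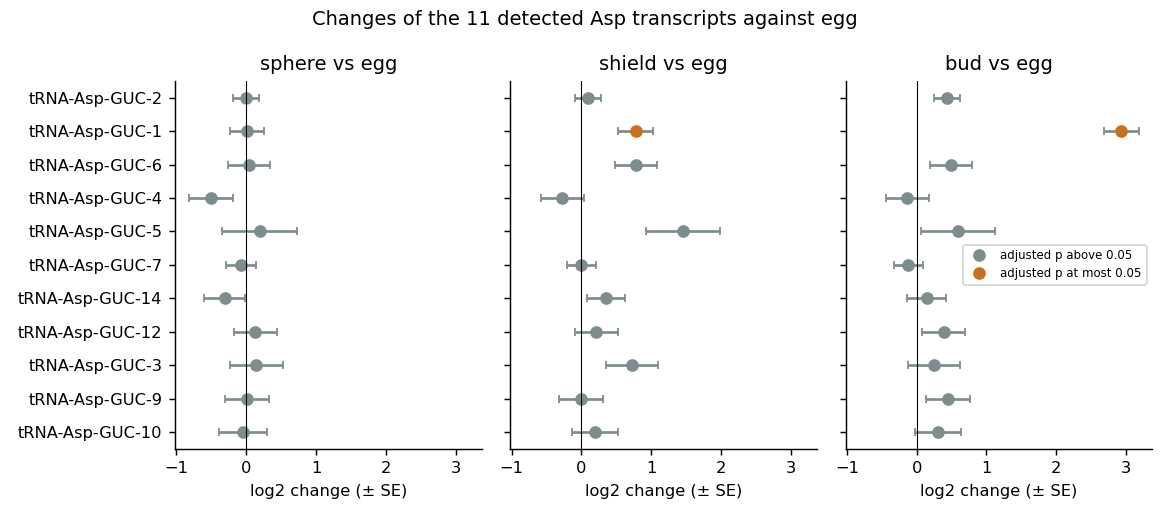
Log2 change (x axis, ± SE) of the 11 detected aspartate transcripts against egg at sphere, shield and bud from DESeq2, ordered by mean abundance. Orange points had an adjusted p of at most 0.05. tRNA-Asp-GUC-1 stood at 2.93 at bud, while the other 10 lay between -0.13 and 0.59.

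As a part of the family, tRNA-Asp-GUC-2 was lower in gastrula than in blastula libraries, mainly at bud. It held 89.1% ± 1.69 (SD, n = 6) of aspartate counts in blastula libraries and 84.1% ± 3.87 (SD, n = 4) in gastrula libraries, a difference of -5.04 percentage points (two-sided exact permutation p = 0.00952, adjusted p = 0.00952 over 2 tests). The groups overlapped, as shield replicate 2 was at 88.0% and 256-cell replicate 2 at 87.3%, and the lowest values were the bud libraries at 79.9% and 81.7%. The stage mean was 87.3% at shield and 80.8% at bud, so the pooled p does not describe each gastrula stage. Shares within the family are parts of a fixed total. The mean for tRNA-Asp-GUC-1 was 2.85% at sphere and 14.0% at bud, so this fall is not separate from that rise.

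tRNA-Asp-GUC-2 remained the main isodecoder at both gastrula stages, and the proportions of the isodecoders shifted between them. From sphere to shield the mean family share went up by 0.626 percentage points of nuclear counts, of which tRNA-Asp-GUC-2 accounted for 0.398, tRNA-Asp-GUC-6 for 0.110 and tRNA-Asp-GUC-1 for 0.0829. From shield to bud the family share moved by 0.0251 points, made up of 0.444 points for tRNA-Asp-GUC-1, -0.273 points for tRNA-Asp-GUC-2 and -0.104 points for tRNA-Asp-GUC-6, with the rest in the other 13. Between egg and bud tRNA-Asp-GUC-1 supplied 0.528 of 0.632 points. These are differences of stage means of 2 libraries and were not tested. The family share of the replicates was 4.37% and 3.48% in egg and 4.85% and 4.21% at shield. Both of these gaps were wider than the family differences in stage means given here, at 0.626, 0.0251 and 0.632 points.

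tRNA-Asp-GUC-6 and tRNA-Asp-GUC-5 held larger parts of aspartate counts at 256-cell, 1000-cell and shield than at the other 3 stages. For tRNA-Asp-GUC-6 the share of aspartate counts was 3.38% and 4.12% in egg, 5.42% and 6.31% at 256-cell, 6.82% and 5.14% at 1000-cell, 3.36% and 4.37% at sphere, 6.43% and 4.97% at shield and 3.70% and 3.16% at bud. All 6 libraries of 256-cell, 1000-cell and shield lay above the other 6, a pattern noticed in these values and not tested. The log2 change of tRNA-Asp-GUC-6 from egg to shield was 0.78 ± 0.30 (DESeq2 adjusted p = 0.0760). tRNA-Asp-GUC-5 held 0.225% and 0.331% of aspartate counts in egg, 0.392% and 0.761% at 256-cell, 0.282% and 0.352% at sphere, 0.885% and 0.444% at shield and 0.280% and 0.263% at bud. Its log2 change from egg to shield was 1.45 ± 0.53 (DESeq2 adjusted p = 0.0576), and it passed the threshold without any 1 of the 256-cell or 1000-cell libraries or without shield replicate 2, where the estimate was 1.89 (adjusted p = 0.0326). For both transcripts shield replicate 1 was above shield replicate 2. 1000-cell replicate 1 was likewise above 1000-cell replicate 2, at 0.853% and 0.391% of aspartate counts for tRNA-Asp-GUC-5. Replicates of these stages were thus far apart for tRNA-Asp-GUC-5. For tRNA-Asp-GUC-6 they differed too, but so did the sphere replicates, at 3.36% and 4.37%. The order of stages was not particular to tRNA-Asp-GUC-6 and tRNA-Asp-GUC-5. Means of tRNA-Asp-GUC-14 were 0.161%, 0.197% and 0.163% at 256-cell, 1000-cell and shield, and 0.144%, 0.117% and 0.104% in egg, sphere and bud. tRNA-Asp-GUC-4 did not share it and was highest in egg, at 0.875%. Shares are parts of a fixed total, and tRNA-Asp-GUC-2 was at 87.9%, 88.3% and 87.3% at those 3 stages, beside 91.0% in egg and 91.1% at sphere.

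tRNA-Asp-GUC-4 and tRNA-Asp-GUC-7 did not pass the threshold in any contrast. tRNA-Asp-GUC-4 held 1.07% and 0.681% of aspartate counts in egg and 0.528% and 0.533% at bud. Its log2 change for bud against egg was -0.13 ± 0.31 (DESeq2 adjusted p = 0.847). Against egg it was -0.84 ± 0.31 at 256-cell (DESeq2 adjusted p = 0.172) and -0.74 ± 0.31 at 1000-cell (DESeq2 adjusted p = 0.4265). These were the lowest estimates of the detected aspartate transcripts in those contrasts. tRNA-Asp-GUC-7 held 0.379% and 0.441% in egg and 0.240% and 0.253% at bud. Its log2 change for bud against egg was -0.12 ± 0.21 (DESeq2 adjusted p = 0.789). The 107-copy isodecoder was therefore low at every stage. The lowest transcripts, tRNA-Asp-GUC-15 and tRNA-Asp-GUC-16, had between 1 and 26 and between 5 and 43 counts per library. The estimate for tRNA-Asp-GUC-16 at bud against egg was -2.06 ± 0.80 (DESeq2 adjusted p = 0.0593).

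Related families were set beside aspartate. The comparison families were the other 3 whose anticodon carries queuosine in vertebrates, Asn-GUU, His-GUG and Tyr-GUA, and both glutamate families. For bud against egg the log2 change was 0.25 for Asn-GUU (DESeq2 adjusted p = 0.232), -0.02 for His-GUG (0.880), 0.07 for Tyr-GUA (0.732), 0.40 for Glu-CUC (0.00137) and -0.38 for Glu-UUC (0.123). Glu-CUC was the only one of these 5 that passed. Of the 607 detected transcripts, of which 27.2% were called in this contrast, 97 rose and 68 fell. By family, 0 rose and 7 fell of 21 in Asn-GUU, 2 rose and 3 fell of 34 in His-GUG, 3 rose and 2 fell of 19 in Tyr-GUA, 3 rose and 2 fell of 34 in Glu-CUC, and 1 rose and 4 fell of 18 in Glu-UUC. In aspartate 1 rose and 0 fell of 11. The difference between families in these counts was not tested.

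By the root mean square difference in log2 change from egg over the 5 later stages, the families most like aspartate were Glu-CUC at 0.143, Lys-CUU at 0.157 and Asn-GUU at 0.167. The least similar of the other 46 families, SeC-UCA, was at 1.05. All 5 changes of a family share the same 2 egg libraries, so this is a description of their course and not a test. At 256-cell and 1000-cell the estimates were -0.13 and -0.13 for Glu-CUC, -0.22 and -0.25 for Lys-CUU and -0.31 and -0.31 for Asn-GUU, beside -0.37 and -0.30 for aspartate.

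The mitochondrial tRNA-Asp, encoded by the mitochondrial genome, was lower at bud than in any earlier library as a share of all tRNA counts. It was 0.972% and 0.727% in egg and 0.334% and 0.394% at bud, while its share of mitochondrial tRNA counts stayed between 3.22% and 5.43% over the 12 libraries. The paper reports that the part of reads from all mitochondrial tRNAs together also went down from egg to bud.

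Charging of aspartate tRNA was compared between sphere and bud. It was 85.1%, 90.0% and 88.0% charged in sphere replicates 1 to 3 and 85.3%, 89.9% and 85.0% in bud replicates 1 to 3. The groups overlapped, although bud replicate 3 was below every sphere library and sphere replicate 2 was above every bud library. The means were 87.7% ± 2.46 (SD, n = 3) and 86.7% ± 2.72 (SD, n = 3). The difference of -0.998 percentage points was smaller than the SD of either group (two-sided exact permutation p = 0.6, adjusted p = 1 over 46 families). With 3 libraries against 3 no p can go below 0.1, and the charging table gives no read counts, so the depth behind these values is unknown. Aspartate ranked 34 of 46 families from the most charged at sphere and 36 at bud, below the median family at 90.1% and 89.3%.

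**Figure D5:**
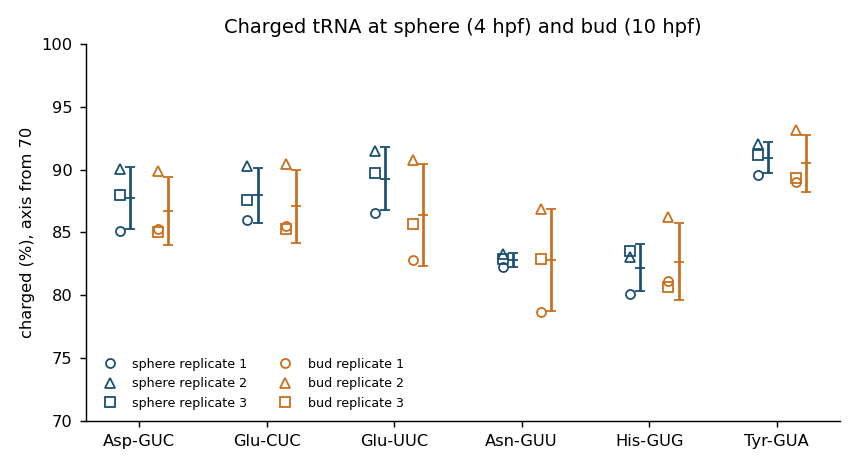
Percentage of charged tRNA in aspartate and the 5 comparison families at sphere (blue) and bud (orange). Open symbols are single libraries, bars are mean ± SD (n = 3), and the y axis starts at 70. Aspartate stood at 87.7% at sphere and 86.7% at bud, and the ranges of the stages overlapped in all 6 families.

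Among the comparison families the mean charging at sphere and bud was 82.8% and 82.8% for Asn-GUU, 82.2% and 82.7% for His-GUG, 90.9% and 90.5% for Tyr-GUA, 87.9% and 87.1% for Glu-CUC and 89.3% and 86.4% for Glu-UUC. Sphere and bud libraries overlapped in each of them. Replicate 2 was the highest bud library in all 46 families, aspartate included, and the highest sphere library in 30 of them, and its part in these values was not tested.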

How the data were processed

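The authors isolated RNA of 60 to 100 nt, made cDNA with a group II intron reverse transcriptase, trimmed reads with cutadapt 3.5 and ran mim-tRNAseq 1.2 against the GRCz11 tRNA set, with a cluster identity of 0.93. The abundance values they deposited are raw counts of uniquely mapped reads for each transcript, alongside the number of gene copies. For charging the authors deposited, by anticodon family and library, the fraction of molecules with an intact 3′ end after oxidation, shown here as a percentage. For 1 family, Asn-GUU, the copy number was a spreadsheet error and was not used. All per-sample columns were mapped to labelled samples. No sequences or positions of these tRNAs were used here.

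Counts of nuclear entries were summed into families. Changes were tested with DESeq2 1.42.0 in R 4.3.3 (Wald test, stage as the only term, all 12 libraries, default independent filtering with a target of 0.1). The 2505 single transcripts and the 47 families were fitted separately, each with its own size factors. Benjamini-Hochberg adjustment ran within each contrast over the entries that passed the filtering, and not across contrasts. Shares and charging were tested by exact permutation over libraries. Wilson intervals at 95% cover counting error only. The fitting code was tested on simulated data.

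The members, lists and tests were chosen with earlier results of these data known. Named transcripts were the 6 most abundant and any that was called; others appear by range or where singled out after their values were seen. Alternatives were edgeR 4.0.16, TMM and total-count scaling, a replicate block, fits of only the libraries compared, other detection settings, unresolved groups and leaving out each library. Other targets for independent filtering, and the family without tRNA-Asp-GUC-1, were chosen after seeing the data.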

Additional observations from a re-analysis of the deposited data

Results flagged for a closer look

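Among 36 groups of 4 or 6 libraries tested for a value far from the others, 3 were found, and chance alone gives about 1 in 20. That rate holds for separate groups of like libraries. Here each group pooled stages and the groups shared libraries, so a stage difference and an outlying library were not told apart. In the 6 blastula libraries, 1000-cell replicate 1 was low for tRNA-Asp-GUC-11, at 0.00275% of nuclear counts against 0.00308% in the nearest library, and high for tRNA-Asp-GUC-14, at 0.00738% against 0.00526%. In the 4 gastrula libraries, shield replicate 1 was high for tRNA-Asp-GUC-2, at 4.21% of nuclear counts against 3.70% in the nearest.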

How the results depend on the processing

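The rises of tRNA-Asp-GUC-1 at bud against egg, sphere and shield stayed on their side of 0 under each alternative run. So did the family share difference and the direction of the family change at 256-cell, 1000-cell, shield and bud against egg. The share of tRNA-Asp-GUC-2 had no alternative run that could change it, as all 16 aspartate entries were already resolved. Leaving out each library in turn, that share difference ran from -6.35 to -3.66 percentage points. Log2 changes are given below. Without tRNA-Asp-GUC-1 the family change for bud against shield was -0.078. With only the libraries compared, the family change for bud against sphere was 0.30 and passed the threshold. For shield against egg, 0 aspartate transcripts were called with only the libraries compared and 0 with no independent filtering. For bud against egg, 2 were called with edgeR and 2 with TMM factors, tRNA-Asp-GUC-2 being the second. For shield against sphere, 1 was called with total nuclear counts as size factors, 1 with the replicate block and 1 with independent filtering at 0.05. The sign of 2 transcripts without a call turned. tRNA-Asp-GUC-4 was at -0.017 for bud against sphere with total counts. tRNA-Asp-GUC-7 for shield against egg was at 0.086 with edgeR and 0.085 with TMM, 0.058 with total counts and 0.014 with only the libraries compared, and for bud against sphere at 0.035 with edgeR and 0.034 with TMM. The causes were not tested.

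Leaving out each library in turn, the family change ran from -0.54 to -0.20 for 256-cell against egg, from -0.17 to 0.16 for sphere against egg, from 0.14 to 0.47 for bud against egg and from -0.022 to 0.16 for bud against shield. The number of aspartate transcripts called ran from 0 to 1 for 256-cell and for 1000-cell against egg, from 0 to 2 for shield against egg, where tRNA-Asp-GUC-5 was the added call, and from 0 to 1 for shield against sphere. Changes of tRNA-Asp-GUC-1 ran from -0.11 to 0.14 for 256-cell and from -0.11 to 0.12 for sphere against egg. For shield against egg tRNA-Asp-GUC-2 ran from -0.024 to 0.22, tRNA-Asp-GUC-4 from -0.66 to 0.22 and tRNA-Asp-GUC-7 from -0.10 to 0.085. tRNA-Asp-GUC-4 ran from -0.51 to 0.37 for bud against egg and tRNA-Asp-GUC-7 from -0.15 to 0.081 for bud against sphere. The charging difference ran from -2.57 to 0.166 percentage points. A stage left with 1 library was assumed to vary like the others.

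With the replicate block, the family change was 0.30 for bud against egg (DESeq2 adjusted p = 0.0515) and 0.30 for bud against sphere (adjusted p = 0.0510), and tRNA-Asp-GUC-1 passed for shield against sphere at 0.77 (adjusted p = 0.0344). It changed no other call. Correlations of the deviations of same-numbered libraries were above 0.1 in 13 of 15 stage pairs and ran from -0.18 to 0.86. Whether same-numbered libraries formed shared sets was not tested. The study's methods state that replicates were collected on different days but not that a number marks a day, and not every pair was above 0.1, so the fit without the block was kept. For charging, the correlations of same-numbered sphere and bud libraries were -0.16, 0.32 and -0.36 for replicates 1 to 3. The block gave an exact permutation p of 0.5 for the charging difference.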
